A study of Homo sapiens with 4 samples.

Results

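The genes of the cell cycle engine were described in SY5Y cells, a human neuroblastoma (NB) line that the labels give as MYCN wild type, 12 h after addition of SGSS05-NS at 3 μM or of DMSO, the solvent. The 46 members are 18 cyclins, 13 cyclin-dependent kinases (CDKs), 3 CDC25 phosphatases, the kinase WEE1, 3 RB family proteins and 8 E2F factors. They were taken by symbol, out of 57820 annotated genes, from a list drawn up with earlier results of these data known. All were kept whatever their change, and grouped into 10 G1, 11 S, 7 G2/M and 18 non-cycling members. SGSS05-NS inhibits SETD8 (KMT5A), the methyltransferase that places a single methyl group on a lysine of histone H4. The study states that compounds of this series also inhibit other lysine and arginine methyltransferases at low micromolar doses. There were 2 libraries per group, all from the same line, which the methods of the study call independent biological replicates. The labels give the same harvest text to all 4 libraries. The study gives the labels' dose for the RNA-seq data in a figure legend and a lower dose for SY5Y cells in its methods, and writes the compound as SGSS05-NS3.

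Cells enter the cycle when D-type cyclins with CDK4 or CDK6 phosphorylate RB1, which then lets go of the activating E2F factors. Cyclin E and cyclin A with CDK2 carry cells through S phase, and cyclin A and cyclin B with CDK1 carry them into mitosis, where WEE1 blocks CDK1 and the CDC25 phosphatases free it. RBL1 and RBL2 with E2F4 or E2F5 form the DREAM complex, which represses cell cycle genes in arrested cells, in part downstream of the CDK inhibitor p21. The non-cycling members have other work: CDK7 with cyclin H and CDK8 or CDK19 with cyclin C act on RNA polymerase II, L-type cyclins act in splicing, CDK5 is a neuronal kinase, and cyclin Y brings CDK14 and CDK16 to membranes.

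The promoters of CCNA2, CCNB1 and CCNB2, the cyclins of S and G2/M that fell, are shown with those of CCNF, the other G2/M cyclin, which was not called, and of E2F7, which rose, since mitotic cyclin promoters are known for CCAAT boxes, bound by NF-Y, and for the cell cycle genes homology region (CHR), through which DREAM acts. The sequences are the 150 bases before the RefSeq transcription start on GRCh38.p14, 5′ to 3′ along the gene, with capitals for a CCAAT box, which reads as its reverse complement where it lies on the other strand, and for a CHR. The CHR was searched as TTTGAA and as the variant TTCGAA, on both strands. The window of CCNA2 is on the minus strand at chr4:121823884-121824033, CCNB1 on the plus strand at chr5:69167000-69167149, CCNB2 on the plus strand at chr15:59104996-59105145, CCNF on the plus strand at chr16:2429297-2429446 and E2F7 on the minus strand at chr12:77065570-77065719.
CCNA2: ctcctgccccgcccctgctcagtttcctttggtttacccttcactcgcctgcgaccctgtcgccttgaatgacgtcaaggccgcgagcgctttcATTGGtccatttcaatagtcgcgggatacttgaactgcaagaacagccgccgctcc
CCNB1: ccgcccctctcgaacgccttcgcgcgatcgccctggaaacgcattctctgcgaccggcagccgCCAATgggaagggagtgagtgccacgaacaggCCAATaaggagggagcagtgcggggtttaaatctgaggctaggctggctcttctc
CCNB2: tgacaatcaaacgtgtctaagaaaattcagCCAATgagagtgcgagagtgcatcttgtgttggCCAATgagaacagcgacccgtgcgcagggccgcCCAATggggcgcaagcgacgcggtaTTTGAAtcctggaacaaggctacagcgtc
CCNF: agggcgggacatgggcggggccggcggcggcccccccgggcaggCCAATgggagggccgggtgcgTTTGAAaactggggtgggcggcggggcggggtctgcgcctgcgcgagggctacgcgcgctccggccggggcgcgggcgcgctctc
E2F7: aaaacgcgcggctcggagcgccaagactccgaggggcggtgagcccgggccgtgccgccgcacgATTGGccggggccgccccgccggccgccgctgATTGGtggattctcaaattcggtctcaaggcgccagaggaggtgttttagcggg

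Within these 150 bases CCNB2 held 3 CCAAT boxes and 1 CHR, CCNB1 and E2F7 2 CCAAT boxes each, CCNA2 1 CCAAT box and CCNF 1 of each motif. RefSeq windows from 250 bases before to 50 after a start were found for 39 of the 46 members (61 windows, several for some genes). With both strands searched, a CCAAT box lay in 69.2% of the 13 windows of the G2/M members, in 39.3% of all member windows and in 34.6% of the 35116 windows of all genes. A CHR in either searched form lay in 53.8% of the G2/M windows, in none of the 8 S windows and in 16.4% of all windows. Windows of 1 gene can overlap and hold the same site. By gene, a CHR was found for 5 of the 6 G2/M members with a window, beside 5336 of 27305 genes. These 5 were CCNB2, CCNF, CDC25B, CDC25C and CDK1, of which only CCNB2 was called lower. The window of CCNB1, also called lower, held neither searched form. Other forms of the CHR were not searched, so a window without a match may still hold one. E2F words (TTTCCCGC, TTTGGCGC, TTTCGCGC or TTTGCCGC) lay in 50% of the 8 S windows, those of CDC25A, E2F1, E2F2 and RBL1, and in 3.31% of all windows. None of CDC25A, E2F1, E2F2 and RBL1 was called, with log2 changes between -0.38 (RBL1) and 0.32 (CDC25A). A match describes letters in a window, and the windows of CCND1, CCND2, E2F5, CCNE2, CDK2, E2F8 and WEE1 were not analysed here.

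With SGSS05-NS, CDK14, CCNY, CDK6, CCNB1, CDK19, CCNB2 and CCNA2 fell and E2F7, CCNL1 and CCNL2 rose. These are the members that passed an adjusted p of 0.001 in edgeR's quasi-likelihood test, where all p-values are adjusted over the 16468 genes tested, and "called" refers to this test wherever no other is named. Changes ran from a log2 fold change of -1.87 (CDK14) to 1.05 (E2F7). Of the 44 members with enough counts to test, 3 (6.82%) were higher and 7 (15.9%) lower, beside 6.37% higher and 8.14% lower among all genes tested. At an adjusted p of 0.05, 8 of the 44 members were higher and 17 of the 44 lower, beside 22.6% and 23.7% of all genes. The median log2 change was -0.09 over the members and 0.01 over all genes. The values of both groups did not overlap for 31 of the 44 members, beside 74.7% of all genes.

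By phase, all 7 G2/M members were below 0 on the log2 scale (median -0.50), with 2 called lower and none higher. Of all 16468 genes tested, 8064 were below 0. Of the 9 G1 members tested, 8 were below 0 (median -0.33), with CDK6 called lower. The 11 S members were split, with 1 higher (E2F7), 1 lower (CCNA2) and a median of 0.11. Of the 17 non-cycling members tested, 2 were higher and 3 lower, with a median of 0.03 and the widest range, from -1.87 (CDK14) to 0.89 (CCNL1).

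**Figure D1:**
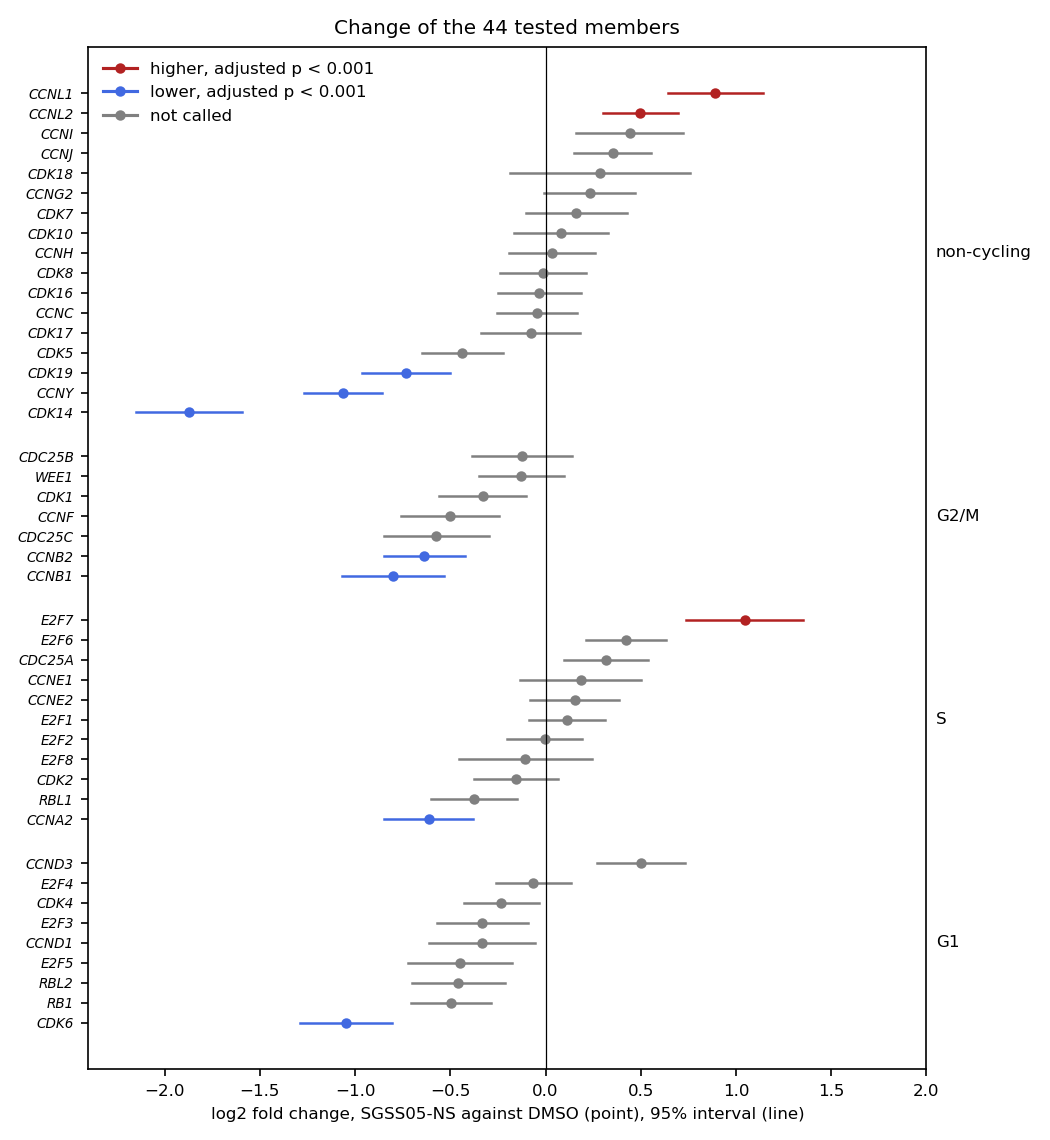
log2 fold change of SGSS05-NS against DMSO for the 44 tested members (points) with the 95% interval from edgeR's quasi-likelihood fit (lines), by phase group. Red members were higher and blue members lower at an adjusted p of 0.001. All 7 G2/M points lie left of 0, and CDK14, at -1.87, lies farthest from it.

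Levels are TMM-normalized CPM, that is, the counts of a gene as a share of the library's total after scaling for library composition. Gene totals were between 21463105 and 25350204 fragments per library. Replicates of a group differed by more than sampling noise, with a chi-square of 8.76 (DMSO) and 11.8 (SGSS05-NS) for each degree of freedom, so no library was counted as a copy of another. Fragments outside annotated exons of the counted strand were 12.4% and 12.3% of all fragments with DMSO and 16.1% and 15.3% with SGSS05-NS. They can include fragments antisense to an exon, and the part of this in the members' values was not tested. KMT5A RNA, which codes for the inhibited enzyme, was 54.6 and 56.8 CPM with DMSO and 82.8 and 82.9 CPM with SGSS05-NS, a log2 change of 0.57, which missed the threshold without DMSO replicate 1 (adjusted p = 0.00165). The RNA of an inhibited enzyme does not show its activity.

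Among the D cyclins, which receive growth signals, CCND1 (chr11:69455924-69469242, plus strand, on GRCh37, as all gene positions that follow) was the main transcript. CCND1 was at 712 and 616 CPM with DMSO and at 598 and 456 CPM with SGSS05-NS. All treated values lay below all DMSO values, yet the log2 change of -0.33 (95% interval -0.61 to -0.05) was not called (adjusted p = 0.0493). It rested on single libraries: it was -0.15 without SGSS05-NS replicate 2 (adjusted p = 0.262) and -0.23 without DMSO replicate 1 (0.20), and was called at -0.55 without SGSS05-NS replicate 1 (0.000278). CCND3 (chr6:41902672-42018095, minus strand) was at 30.8 and 27.6 CPM with DMSO and at 40.1 and 42.5 CPM with SGSS05-NS. CCND3 thus lay on the other side, with a log2 change of 0.50 (0.27 to 0.73) that missed the threshold (adjusted p = 0.00241) and passed it in the likelihood ratio test (adjusted p = 0.000171). CCND2 had no fragment in 3 libraries and 2 fragments in SGSS05-NS replicate 2, and was not tested. Per kilobase of exon, CCND1 (139 RPKM) stood far above CCND3 (5.07 RPKM) with DMSO, and the ratio of CCND3 to CCND1 was 0.0357 and 0.0371 with DMSO and 0.0555 and 0.0769 with SGSS05-NS. The D cyclin pool thus remained nearly all CCND1 in every library.

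The partner kinases of the D cyclins differed from each other. CDK6 (chr7:92234235-92465887, minus strand) was at 827 and 1023 CPM with DMSO and at 448 and 446 CPM with SGSS05-NS. That is 2.07-fold lower, with a log2 change of -1.05 ± 0.11 (SE, 2 against 2 libraries, adjusted p = 1.99e-05), and the treated libraries were nearly equal. CDK4 (chr12:58141510-58149796, minus strand), the other kinase that acts on RB1 with D cyclins, was at 257 and 249 CPM with DMSO and at 215 and 216 CPM with SGSS05-NS. Its log2 change of -0.23 (-0.43 to -0.04) was not called (adjusted p = 0.0526). Per kilobase of exon, CDK4 and CDK6 were close with DMSO (81.8 ± 1.9 and 75.6 ± 11.3 RPKM, SD, n = 2), while with SGSS05-NS CDK4 was at 69.7 ± 0.4 and CDK6 at 36.5 ± 0.1 RPKM. Within a library, the ratio of CDK6 to CDK4 was 0.812 and 1.04 with DMSO and 0.527 and 0.522 with SGSS05-NS, a quantity that no scaling between libraries can alter. The pairs of members set against each other here and below were chosen after their values were seen, and their ratios are descriptions with no test. Levels per kilobase use merged exon lengths of a later annotation than that of the counts. The order of genes close in level depends on these lengths, while the change of a ratio between libraries does not.

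All 3 RB family members, the repressors that bind E2F factors, were lower in every treated library than in any DMSO library, but none was called in edgeR's quasi-likelihood test. The groups did not overlap for 74.7% of all genes tested. RB1 (chr13:48877880-49173572, plus strand) was at 121 and 130 CPM with DMSO and at 84.1 and 93.1 CPM with SGSS05-NS, a log2 change of -0.50 (adjusted p = 0.00143). RB1 passed the threshold in edgeR's likelihood ratio test (adjusted p = 6.82e-05) and in DESeq2 (0.000165), and without DMSO replicate 1 (0.000426) or SGSS05-NS replicate 2 (0.000541). RBL2, which joins DREAM in resting cells, was at 41.2 and 40.1 CPM with DMSO and at 32.3 and 27.0 CPM with SGSS05-NS (log2 change -0.46, adjusted p = 0.00593), and passed only when SGSS05-NS replicate 1 was left out (0.000527) or low counts were not filtered (0.000427). RBL1, its relative in cycling cells, was at 48.3 and 50.5 CPM with DMSO and at 35.5 and 40.6 CPM with SGSS05-NS (log2 change -0.38, adjusted p = 0.0110). The 3 changes had overlapping 95% intervals, and RB1 was the most abundant of the family per kilobase in both groups.

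The repressive E2F factors that work with RBL1 and RBL2 gave small or uncalled differences. E2F4 (chr16:67226058-67232821, plus strand), the main DREAM factor, was at 75.1 and 76.1 CPM with DMSO and at 73.2 and 71.5 CPM with SGSS05-NS, a log2 change of -0.06 (-0.26 to 0.13). E2F5 was at 22.2 and 21.5 CPM with DMSO and at 14.7 and 17.3 CPM with SGSS05-NS, a log2 change of -0.45 (adjusted p = 0.0118). E2F5 overlaps other genes on the opposite strand, and counts on that strand made up between 51.5% and 61.1% of all counts at its exons, which the strand-specific counts leave out. E2F3, an activator that RB1 holds in G1, was at 95.3 and 113 CPM with DMSO and at 87.9 and 78.0 CPM with SGSS05-NS (log2 change -0.33, adjusted p = 0.0260). Of these 3 factors E2F4 had the smallest difference, although its groups did not overlap.

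Among the S members, E2F7 stood out. E2F7 (chr12:77415028-77459349, minus strand), an atypical E2F that represses other E2F targets, was at 23.9 and 22.2 CPM with DMSO and at 55.1 and 40.1 CPM with SGSS05-NS. It rose 2.06-fold, with a log2 change of 1.05 ± 0.14 (SE, 2 against 2 libraries, adjusted p = 0.000111), and leaving out each library in turn gave between 0.79 and 1.26. E2F8, the other atypical E2F, was at 16.0 and 14.0 CPM with DMSO and at 16.2 and 11.8 CPM with SGSS05-NS, so that its groups overlapped (log2 change -0.11, -0.45 to 0.24). The ratio of E2F7 to E2F8 per kilobase was 0.979 and 1.04 with DMSO and 2.23 and 2.24 with SGSS05-NS. With the exon lengths used, both atypical factors were thus about even in control cells, and the ratio was higher in both treated libraries.

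The activating E2F factors of the S group were near their control levels. E2F1 (chr20:32263283-32274191, minus strand) was at 77.1 and 73.3 CPM with DMSO and at 79.5 and 82.9 CPM with SGSS05-NS, a log2 change of 0.11 (-0.09 to 0.31). E2F2 was at 83.4 and 80.3 CPM with DMSO and at 82.6 and 80.6 CPM with SGSS05-NS, the smallest change of all members (log2 change -0.01, -0.20 to 0.19). E2F6, a repressor that does not bind RB1, was at 51.2 and 55.7 CPM with DMSO and at 68.9 and 74.1 CPM with SGSS05-NS, which did not overlap but missed the threshold (log2 change 0.42, adjusted p = 0.00395) except in the likelihood ratio test (0.000754). Of the 8 E2F factors, E2F7 was the only one called in edgeR's quasi-likelihood test, and E2F1 had the highest level per kilobase in both groups (28.0 and 30.2 RPKM).

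CCNA2 was the S member that fell, while the E cyclins and CDK2 were not called. CCNA2 (chr4:122737599-122745038, minus strand), which drives S phase with CDK2 and mitotic entry with CDK1, was at 168 and 160 CPM with DMSO and at 117 and 96.9 CPM with SGSS05-NS. It was 1.53-fold lower, with a log2 change of -0.61 ± 0.11 (SE, 2 against 2 libraries, adjusted p = 0.000679). The call of CCNA2 was lost without SGSS05-NS replicate 2, the library with the lower value (log2 change -0.48, adjusted p = 0.002). CCNA2 in bulk RNA cannot tell fewer cells in late S and G2 from less RNA per cell, and the same holds for each member below.

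CCNE1, which starts S phase, was at 13.4 and 11.8 CPM with DMSO and at 12.9 and 15.8 CPM with SGSS05-NS, so that its groups overlapped (log2 change 0.19, -0.13 to 0.50). CCNE2 was at 28.9 and 26.5 CPM with DMSO and at 30.7 and 31.0 CPM with SGSS05-NS (log2 change 0.15, -0.08 to 0.39). CDK2, their kinase, was at 88.0 and 78.8 CPM with DMSO and at 70.5 and 79.2 CPM with SGSS05-NS, again overlapping (log2 change -0.16, -0.38 to 0.06). These intervals leave room for changes of modest size in either direction. CDC25A, the phosphatase that frees CDK2, was between 114 and 116 CPM with DMSO and at 132 and 154 CPM with SGSS05-NS, a log2 change of 0.32 that was not called (adjusted p = 0.0228).

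**Figure D2:**
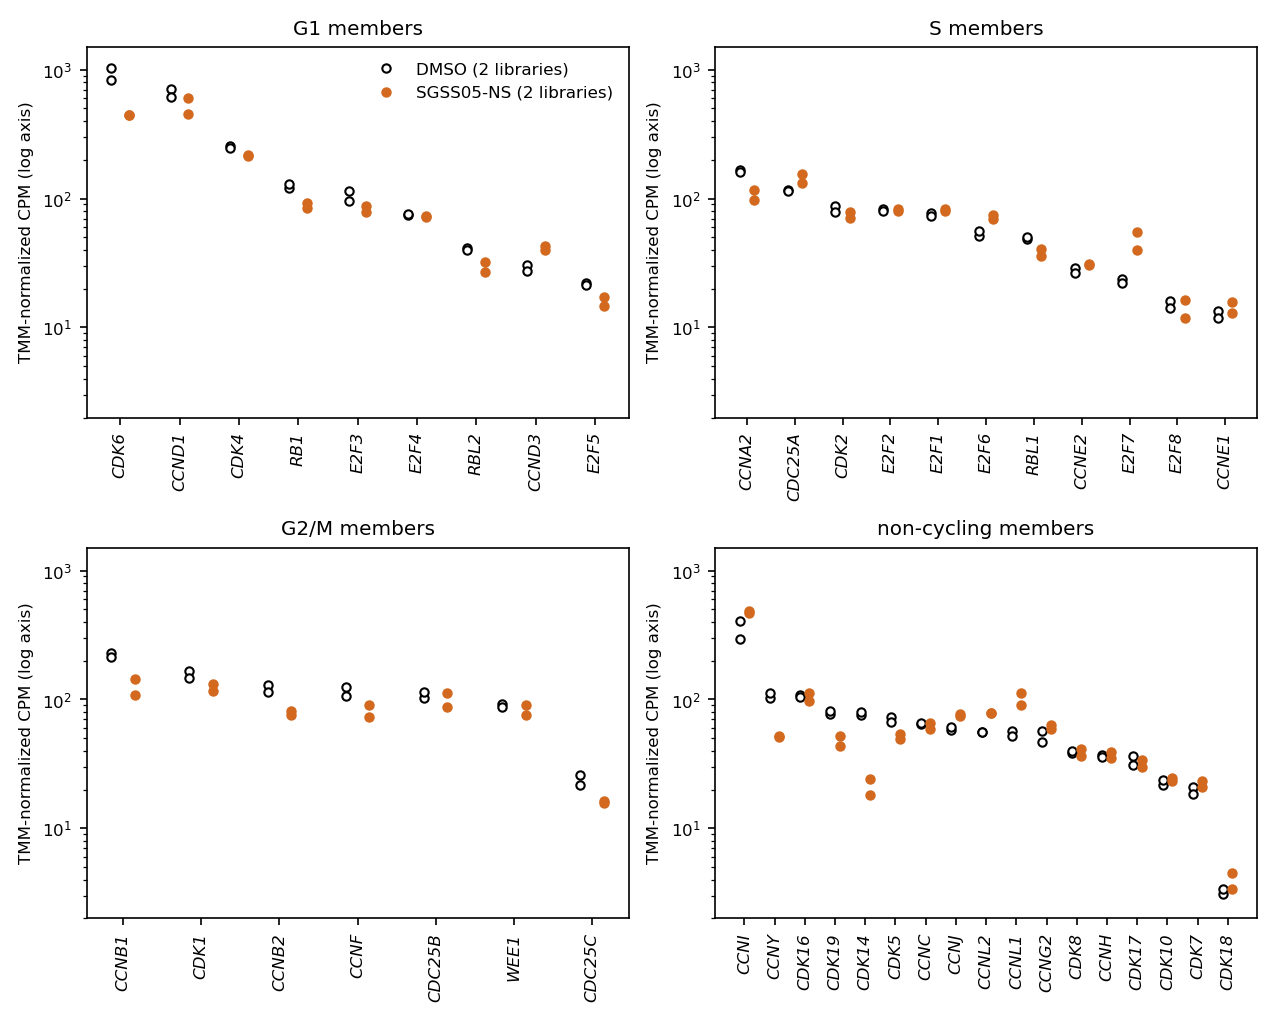
TMM-normalized CPM (log axis) of the 44 tested members in each library, by phase group and ordered by the DMSO mean; open points are the 2 DMSO libraries and filled points the 2 SGSS05-NS libraries. The filled points of CCNB1, CCNB2, CCNA2, CCNY and CDK14 lie below the open ones, and those of E2F7 and CCNL1 lie above.

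In G2/M the B cyclins fell and the kinase they bind was not called. CCNB1 (chr5:68462962-68474072, plus strand), the main mitotic cyclin, was at 228 and 212 CPM with DMSO and at 144 and 109 CPM with SGSS05-NS. It was 1.74-fold lower, with a log2 change of -0.80 ± 0.12 (SE, 2 against 2 libraries, adjusted p = 0.000282). CCNB2 (chr15:59397325-59417244, plus strand) was at 129 and 115 CPM with DMSO and at 81.5 and 75.7 CPM with SGSS05-NS. It was 1.55-fold lower, with a log2 change of -0.64 ± 0.10 (SE, 2 against 2 libraries, adjusted p = 0.000301). With library sizes left without TMM scaling, CCNB1, CCNB2 and CCNA2 kept their direction and missed the threshold (adjusted p = 0.00138, 0.00116 and 0.00287).

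CDK1 (chr10:62538089-62554610, plus strand) was at 167 and 146 CPM with DMSO and at 133 and 116 CPM with SGSS05-NS, a log2 change of -0.33 (-0.56 to -0.10, adjusted p = 0.0225). CCNF, the F-box subunit of an SCF ubiquitin ligase, was at 126 and 106 CPM with DMSO and at 90.1 and 73.6 CPM with SGSS05-NS (log2 change -0.50, adjusted p = 0.00482). CDC25C, which frees CDK1 at mitosis, was at 25.7 and 21.7 CPM with DMSO and at 16.2 and 15.7 CPM with SGSS05-NS (log2 change -0.57, adjusted p = 0.00315). The groups of CDK1, CCNF and CDC25C did not overlap, as for 74.7% of all genes tested, and none was called in edgeR's quasi-likelihood test. The likelihood ratio test called CCNF (adjusted p = 0.000705) and CDC25C (0.000204). Both were also called without DMSO replicate 2 (4.16e-05 and 0.000156), and CCNF without SGSS05-NS replicate 1 (0.000149). CDC25B (log2 change -0.12) and WEE1 (log2 change -0.13), which act on CDK1 in opposite ways, had overlapping groups.

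The treated replicates were not equal in this group. All 7 G2/M members were lower in SGSS05-NS replicate 2 than in replicate 1, and 6 of the 7 were lower in DMSO replicate 2 than in replicate 1. Leaving out SGSS05-NS replicate 2, or another library in turn, gave log2 changes of CCNB1 between -1.02 and -0.61, with the threshold passed each time. The ratio of CCNB1 to CCNB2 per kilobase was 2.00 and 2.09 with DMSO and 2.00 and 1.63 with SGSS05-NS, so that only SGSS05-NS replicate 2 stood clear of the others.

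Other genes of the G2/M phase, none of them members, were on the same side. Of 27, 9 (33.3%) fell and none rose, beside 8.14% lower and 6.37% higher among all genes tested. All 27 were below 0 on the log2 scale (median -0.56), beside 8064 of all 16468 genes tested. Their list too was drawn up with earlier results of these data known. BUB1B, a spindle checkpoint kinase, went from 145 and 142 CPM to 84.6 and 63.7 CPM (log2 change -0.95, adjusted p = 8.38e-05). TOP2A, which untangles chromosomes, went from 885 and 843 CPM to 558 and 476 CPM (log2 change -0.74, adjusted p = 0.000149). KIF11, the motor that parts the spindle poles, went from 249 and 248 CPM to 164 and 139 CPM (log2 change -0.71, adjusted p = 0.000182). These genes too differed between replicates, with 26 of the 27 lower in SGSS05-NS replicate 2 than in replicate 1 and 25 of the 27 lower in DMSO replicate 2 than in replicate 1.

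Among the non-cycling members, cyclin Y and its kinase CDK14 fell most. CDK14 (chr7:90095738-90839905, plus strand), a membrane-bound kinase of Wnt signaling, was at 75.5 and 80.4 CPM with DMSO and at 18.3 and 24.3 CPM with SGSS05-NS. It was 3.66-fold lower, with a log2 change of -1.87 ± 0.13 (SE, 2 against 2 libraries, adjusted p = 6.99e-07). CCNY (chr10:35535953-35861597, plus strand) was at 103 and 113 CPM with DMSO and at 51.3 and 52.0 CPM with SGSS05-NS. It was 2.09-fold lower, with a log2 change of -1.06 ± 0.09 (SE, 2 against 2 libraries, adjusted p = 5.36e-06). CDK16, the other kinase that cyclin Y activates, was at 108 and 105 CPM with DMSO and at 112 and 96.5 CPM with SGSS05-NS (log2 change -0.03, -0.25 to 0.19). The ratio of CDK14 to CDK16 per kilobase was 0.649 and 0.711 with DMSO and 0.152 and 0.234 with SGSS05-NS. Their relatives CDK17 (log2 change -0.08) and CDK18 (log2 change 0.29, on 75 to 105 fragments per library) had overlapping groups.

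The kinases of the Mediator complex also parted. CDK19 (chr6:110931181-111137161, minus strand) was at 76.6 and 82.0 CPM with DMSO and at 51.8 and 43.6 CPM with SGSS05-NS. It was 1.66-fold lower, with a log2 change of -0.73 ± 0.11 (SE, 2 against 2 libraries, adjusted p = 0.000184). CDK8 (chr13:26828241-26995119, plus strand) was at 38.4 and 40.1 CPM with DMSO and at 36.7 and 41.0 CPM with SGSS05-NS, overlapping (log2 change -0.01, -0.24 to 0.21). The ratio of CDK19 to CDK8 per kilobase was 1.24 and 1.27 with DMSO and lower, at 0.875 and 0.660, with SGSS05-NS. CCNC, the cyclin of both, had a log2 change of -0.05 and overlapping groups.

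The L-type cyclins, partners of CDK11 in splicing, both rose. CCNL1 (chr3:156864297-156878549, minus strand) was at 57.1 and 52.5 CPM with DMSO and at 90.4 and 113 CPM with SGSS05-NS. It rose 1.86-fold, with a log2 change of 0.89 ± 0.11 (SE, 2 against 2 libraries, adjusted p = 8.13e-05). CCNL2 (chr1:1321091-1334715, minus strand) was at 56.2 and 55.6 CPM with DMSO and at 78.9 and 78.8 CPM with SGSS05-NS. It rose 1.41-fold, with a log2 change of 0.50 ± 0.09 (SE, 2 against 2 libraries, adjusted p = 0.000946), close to the threshold. The call of CCNL2 was lost without DMSO replicate 1, without DMSO replicate 2 or without SGSS05-NS replicate 2 (adjusted p = 0.00397, 0.00646 and 0.00105), with log2 changes between 0.47 and 0.50 over all libraries left out in turn. The ratio of CCNL1 to CCNL2 per kilobase was 0.796 and 0.740 with DMSO and 0.898 and 1.12 with SGSS05-NS.

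The other non-cycling members were not called in edgeR's quasi-likelihood test. CDK5 was at 73.3 and 67.0 CPM with DMSO and at 49.6 and 54.1 CPM with SGSS05-NS (log2 change -0.44, adjusted p = 0.00349), and the likelihood ratio test called it (0.000539). CCNI, a cyclin with no clear cycle role and per kilobase the most abundant non-cycling member, was at 297 and 404 CPM with DMSO and at 467 and 486 CPM with SGSS05-NS (log2 change 0.44, adjusted p = 0.0144). The log2 change of CCNI was 0.23 without DMSO replicate 1 (adjusted p = 0.219) and was called at 0.66 without DMSO replicate 2 (6.79e-05). CCNJ was at 57.5 and 61.2 CPM with DMSO and at 76.9 and 74.6 CPM with SGSS05-NS (log2 change 0.35, adjusted p = 0.00854). The groups of these 3 genes did not overlap, as for 74.7% of all genes tested. CDK5 was on the lower side and CCNI and CCNJ on the higher side. CCNG2, CDK7, CDK10 and CCNH had log2 changes between 0.03 and 0.23. CCNO, a cyclin of ciliated cells, had 2 fragments in each SGSS05-NS library and none with DMSO, too few to test.

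**Figure D3:**
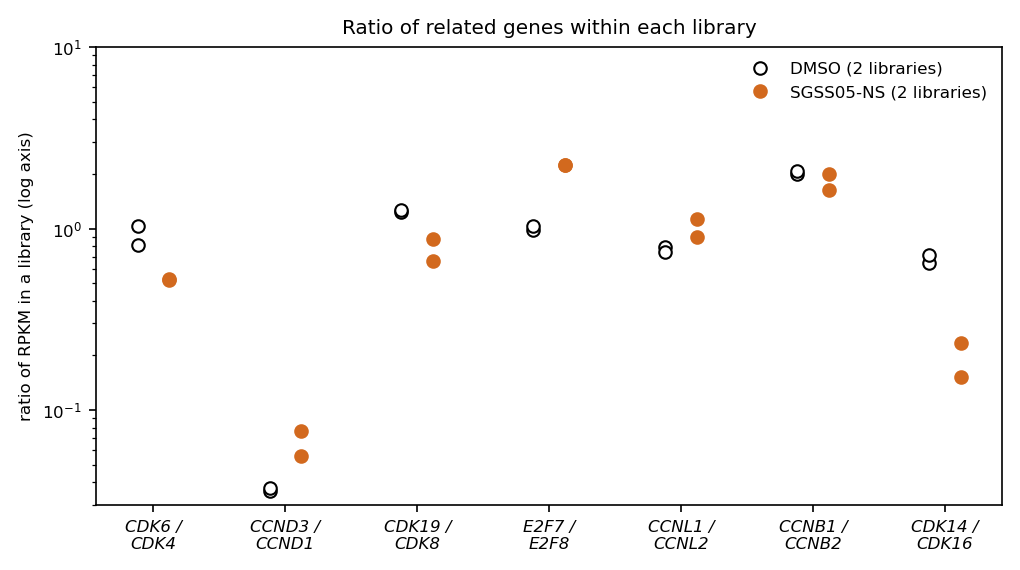
Ratio of the levels per kilobase of exon (RPKM) of 7 pairs of related members within each library (log axis); open points are the 2 DMSO libraries and filled points the 2 SGSS05-NS libraries. The pair CDK14 and CDK16 shows the widest gap (0.649 and 0.711 against 0.152 and 0.234), while in the pair CCNB1 and CCNB2 the groups meet at 2.00.

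The members that fell outside the S and G2/M groups had in common that they are long genes. CDK14 spans 744 kb, CCNY 326 kb, CDK6 232 kb and CDK19 206 kb, while CCNA2, CCNB1 and CCNB2 span 7.44, 11.1 and 19.9 kb. Of the 9 tested members over 100 kb, 4 were lower and none higher (median log2 change -0.50). Over all 2833 tested genes of more than 100 kb, the median log2 change was -0.42, close to that of the long members. It was 0.13 for genes under 20 kb, so that long genes were lower in the median across the whole transcriptome. The share called among all long genes was not counted, so the 4 of 9 cannot be set against it. Of the 20 members under 20 kb, 2 were higher and 3 lower (median -0.11), and of the 15 between 20 and 100 kb 1 was higher and none lower (median -0.01). RB1, at 296 kb, was uncalled at -0.50, and CDK8 (167 kb), CDK17 (122 kb), CCND3 (115 kb) and CCNG2 (276 kb in this annotation) were between -0.08 and 0.50. Across the 44 members Spearman's rho of log2 change and gene length was -0.17, and across 16042 genes with a position it was -0.22. Both are descriptions over genes that share the same 4 libraries, and the part of length in the change of any member was not tested.

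Genes that work with the members were taken from lists that were also drawn up with earlier results of these data known. The shares called in each list stand beside 6.37% higher and 8.14% lower among all genes tested. Of 7 CDK inhibitors, CDKN1A (p21), which blocks cyclin-CDK complexes, rose from 19.6 and 15.3 CPM to 520 and 374 CPM (log2 change 4.68, adjusted p = 5.21e-09), and none of the 7 fell. CDKN1B (p27) was at 73.9 and 74.6 CPM with DMSO and at 95.9 and 94.9 CPM with SGSS05-NS, which was not called (log2 change 0.36, adjusted p = 0.00619). CDKN2B had 7 fragments with DMSO and 37 with SGSS05-NS, a ratio of scaled counts of 5.60 (exact binomial 95% interval 2.47 to 14.9, counting error only), and was not called (adjusted p = 0.00142), though the likelihood ratio test called it (2.66e-05). MDM2, a ubiquitin ligase, rose from 174 and 189 CPM to 479 and 392 CPM (log2 change 1.26).

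Of 16 CDK partners and ubiquitin ligase subunits, 1 (6.25%) rose and 3 (18.75%) fell (median log2 change -0.13). FBXW7, the F-box protein that marks cyclin E for decay, rose from 61.7 and 58.1 CPM to 104 and 97.3 CPM (log2 change 0.75, adjusted p = 6.72e-05). SKP2, which marks p27 for decay, fell from 147 and 137 CPM to 88.1 and 86.6 CPM (log2 change -0.70, adjusted p = 9.37e-05). BTRC, which marks WEE1 and CDC25A for decay, fell from 49.2 and 45.5 CPM to 28.8 and 21.6 CPM (log2 change -0.91, adjusted p = 0.000184). FBXW7 and BTRC are both long genes (216 and 203 kb), with opposite directions.

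Of 10 DREAM and MuvB subunits that are not members, 3 (30%) fell and none rose (median log2 change -0.20). TFDP2, a dimer partner of E2F factors, fell from 71.3 and 78.7 CPM to 45.0 and 42.6 CPM (log2 change -0.78, adjusted p = 6.72e-05), and LIN52, which links MuvB to RBL1 or RBL2, from 29.9 and 32.8 CPM to 18.3 and 20.6 CPM (log2 change -0.68, adjusted p = 0.000599). TFDP1, the main dimer partner, fell from 102 and 104 CPM to 75.2 and 66.8 CPM (log2 change -0.53, adjusted p = 0.000882). The call of TFDP1 was lost without SGSS05-NS replicate 2 (adjusted p = 0.00312) and that of LIN52 without SGSS05-NS replicate 1 (adjusted p = 0.00108).

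Of 25 tested E2F target genes of DNA synthesis, 1 (4%) rose and 5 (20%) fell (median log2 change -0.19). POLA1, the catalytic subunit of DNA polymerase alpha, fell from 93.7 and 90.7 CPM to 46.5 and 55.0 CPM (log2 change -0.86, adjusted p = 4.93e-05), RRM2, a ribonucleotide reductase subunit, from 352 and 378 CPM to 239 and 224 CPM (log2 change -0.66, adjusted p = 0.000181), and GINS1, a helicase subunit, from 77.5 and 72.8 CPM to 48.0 and 50.3 CPM (log2 change -0.61, adjusted p = 0.000284). CDT1, which licenses replication origins, rose from 70.8 and 57.2 CPM to 95.1 and 99.9 CPM (log2 change 0.61, adjusted p = 0.000920), and its call was lost without DMSO replicate 2 (adjusted p = 0.00983). The part of E2F1, E2F2 and E2F7, given above, in the changes of these targets was not tested.

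Of 19 tested cyclin and CDK genes that are not members, 3 (15.8%) rose and none fell (median log2 change 0.28). CCNG1, a G-type cyclin, rose from 176 and 158 CPM to 299 and 316 CPM (log2 change 0.88, adjusted p = 2.76e-05). CCNT1 and CCNT2, the cyclins of the elongation kinase CDK9, had log2 changes of 0.86 and 0.72 (adjusted p = 3.07e-05 and 0.000131). The cyclins that rose were thus CCNL1, CCNL2, CCNG1, CCNT1 and CCNT2, while those that fell were CCNA2, CCNB1, CCNB2 and CCNY.

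**Figure D4:**
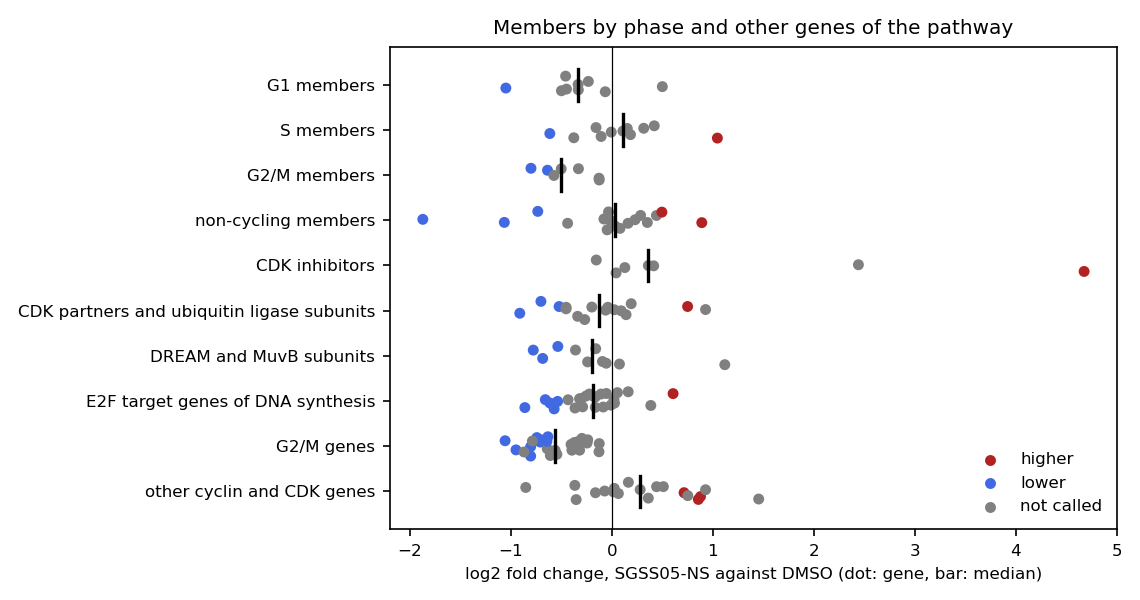
log2 fold change of SGSS05-NS against DMSO of each tested gene (dots) in the 4 phase groups of members and in 6 lists of other genes of the pathway, with the median of each list (bars). Red genes were higher and blue genes lower at an adjusted p of 0.001. The bars of the G2/M members (-0.50) and of the other G2/M genes (-0.56) lie farthest to the left, and CDKN1A, at 4.68, lies farthest to the right.

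The identity of the cells was checked against markers. Of 13 adrenergic neuroblast markers, 12 were tested, with TH near 0 in every library. With SGSS05-NS 8 (66.7%) were called lower and none higher, beside 8.14% and 6.37% of all genes tested. Their median log2 change was -0.80. HAND2, a transcription factor of this lineage, was at 603 and 615 CPM with DMSO and at 402 and 293 CPM with SGSS05-NS. The summed level of the list was between 3918 and 4199 CPM with DMSO and between 2257 and 2496 CPM with SGSS05-NS. Of 14 mesenchymal and Schwann-like markers, 8 were tested and none called, 3 (PRRX1, DCN and SOX10) were at 0 in every library, and the list summed to between 72.6 and 89.3 CPM over all libraries. Blood and endothelial markers summed to 0.319 and 0.428 CPM with DMSO and to 1.17 and 1.32 CPM with SGSS05-NS, nearly all of it CD14. The part of the adrenergic markers' fall in the members' changes was not tested.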

How the data were processed

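RNA of 4 libraries was sequenced, 2 with DMSO and 2 with SGSS05-NS. The authors used Trimmomatic 0.30 for trimming and STAR 2.4.2a for alignment to hg19, and deposited raw counts per gene, not normalized. The labels name a TruSeq RNA kit and the methods of the study a stranded one with rRNA removal. The column of reverse-strand counts was used, since the other strand held between 4.64% and 5.05%. Summary rows that name no gene (37.3% to 38.8% of fragments) were left out. Multimapping fragments are not counted, so near-identical genes are too low.

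R 4.3.3 and edgeR 4.0.16 were used for the counts, with filterByExpr, TMM, a quasi-likelihood test of treatment alone, Benjamini-Hochberg adjustment over 16468 genes and the study's threshold of 0.001. The study used edgeR 3.10.5 with a likelihood ratio test, run here as an alternative beside DESeq2 1.42.0 and limma 3.58.1 (voom), other scalings and filters, counts without strand, a replicate block and leaving out each library. The SE is the log2 change divided by the square root of F. Symbols, positions and merged exon lengths are from GENCODE 44 on GRCh37, a later version than the study counted on, and promoters from RefSeq. The test was tested on simulated data.

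Members and lists were chosen with earlier results of these data known. All members may be named, with the 3 smallest p-values of each other list, calls against its majority, and KMT5A, MDM2 and CDKN1A; the result of 1 other gene is not reported here. Markers, CCNI, CCNJ, CDK5, CDK8, CDK16, CCNF, CDC25A and CDC25C were given library values after theirs were seen. UHRF1, CCNQ and PECAM1 were not analysed here.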

Additional observations from a re-analysis of the deposited data

Results flagged for a closer look

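Counts on the strand opposite to a gene were not used in any comparison, and they stood above the DMSO level by over 2-fold, on at least 20 counts, at 2 of the members. At CDC25C the opposite strand held 54 and 40 counts with DMSO and 105 and 175 counts with SGSS05-NS, a 3.15-fold difference after scaling for library size. FAM53C overlaps CDC25C on that strand. At CDK10 it held 11 and 7 counts with DMSO and 25 and 75 counts with SGSS05-NS, a 5.85-fold difference. LINC02166 overlaps CDK10 on that strand. The source of these counts was not tested, and they do not enter the values of CDC25C and CDK10 given above.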

How the results depend on the processing

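Of the 10 members called, E2F7, CCNL1, CDK6, CCNY, CDK14 and CDK19 kept their call and direction in all 14 alternatives, CCNB1 and CCNB2 in 13, CCNA2 in 12 and CCNL2 in 8. Over all 66 genes tracked and 14 alternatives, 839 of 923 values kept direction and side of the threshold, 21 lost the call, 47 gained one and 16 changed sign. The main counts were 1049 genes higher and 1341 lower, with 3 members higher and 7 lower. The likelihood ratio test gave 2022 and 2267 genes with 5 and 11 members, no filter on low counts 2034 and 2570 genes with 5 and 13 members, and an adjusted p of 0.05 3728 and 3903 genes with 8 and 17 members; the last follows from the looser threshold, and for the others the cause was not tested. Library size without TMM left 4 members lower. CCNL2 also missed the threshold with voom (adjusted p = 0.00106) and with counts of both strands (0.00178). Deviations of same-numbered libraries correlated at 0.053 over 16468 genes. Yet all 7 G2/M members were lower in replicate 2 with SGSS05-NS and 6 of them with DMSO, as were 26 and 25 of the 27 other G2/M genes. Whether same-numbered libraries share a batch was not tested. The replicate block gave 1759 genes higher and 2007 lower, with 4 and 10 members. Leaving out each library gave 2 to 3 members higher and 7 to 10 lower, with a lone library assumed to vary like the other group. Signs turned only for members near 0: E2F2 (0.027), CDK8 (0.016) and CDK16 (0.0023) with library size alone, E2F2 (0.0069) with at least 10 counts in every library and CCNH (-0.021) with counts of both strands. Over the libraries left out, the log2 change of E2F2 ran from -0.050 to 0.013, CDK17 from -0.22 to 0.045, CCNH from -0.049 to 0.10, CCNC from -0.12 to 0.022, CDK8 from -0.095 to 0.056, E2F8 from -0.36 to 0.11, CDC25B from -0.33 to 0.050 and CDK16 from -0.15 to 0.074. Other scalings moved the median of all genes by at most 0.031. The members gained in the likelihood ratio test were CCND3, E2F6, RB1, CCNF, CDC25C and CDK5, in DESeq2 RB1, in the replicate block CCND3, RB1, CCNF and CDC25C, and without a filter CCND1, CCND3, RB1, RBL2, CCNF, CDC25C, CCNI and CDK5. CDK1 was called in none of the alternatives at 0.001. With 2 libraries per group, which members near the threshold were called turned on the test and on single libraries.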
